A study of Mus musculus with 3 samples.

Results

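The 10 genes described here encode enzymes and partners that write, copy or remove DNA methylation and write the Polycomb mark on histone H3. They are Dnmt1, Dnmt3a, Dnmt3b, Uhrf1, Tet1, Tet2, Tet3, Ezh2, Eed and Suz12. They were taken by name, so no measured value chose them, and all 10 are among the 27734 genes listed in all 3 runs. Thymocytes of C57BL/6 mice aged 6 to 8 weeks were sorted from 4 pooled thymi per run and measured by 10x 3′ single-cell RNA sequencing. Total DN and TCRγδ+ cells made up the first run, and DN1 and DN2 cells lacking surface TCRγδ the second. For the third run, TCRγδ+ cells, DN3 cells and a joint sort of DN1 and DN2 were collected apart and mixed before loading. Cells with CD4, CD8, B220, CD11b, CD11c, NK1.1 or TCRβ on their surface had been removed. Each sort was made once, so the runs are 3 libraries of different composition and not replicates of a sort.

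DNA methylation is kept through cell division because UHRF1 binds hemimethylated DNA behind the replication fork and brings in DNMT1, the maintenance methyltransferase, whereas DNMT3A and DNMT3B methylate new sites and the TET enzymes oxidize 5-methylcytosine, the first step of its removal. EZH2, EED and SUZ12 form the core of Polycomb repressive complex 2 (PRC2), which methylates lysine 27 of histone H3. Early thymocytes pass from the early T-lineage progenitor (ETP) through DN2a and DN2b to DN3, where the cells pause to rearrange the TCRβ locus, and both systems are known to restrain genes of other lineages on the way.

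Of the deposited cells, 5516 of 5527, 8852 of 8887 and 7511 of 8869 had 500 to 5000 genes and at most 7% mitochondrial counts. Here and throughout, values of the 3 runs are given in this order, the first run, then the second, then the third. In the third run, 552 cells were left out for listing more than 5000 genes, against 3 and 2 in the other runs. Mitochondrial counts above 7% were found in 762 of its cells, against 8 and 31. Fewer than 500 genes were found in 199 of them, against 0 and 2. A cell can fail more than 1 of these limits. The median cell held 5982, 4830 and 8343 UMIs before this filter. The first and second runs shared 72 barcodes, the first and the third shared 3, and the second and the third shared 0. Cells were gated on the UMIs of a few marker genes. Il2ra (CD25) with a progenitor gene such as Kit or Cpa3 gave the DN2a-like gate, the addition of Rag1, Rag2 or Ptcra gave DN2b-like, and Il2ra and Ptcra with Rag1, Rag2 or Notch3 and no progenitor gene gave DN3-like. Cells without Il2ra gave ETP-like, DN4-like, γδ-like and NK-receptor gates. The DN2a-like gate held 414, 1915 and 1144 cells, DN2b-like held 258, 963 and 1046, and DN3-like held 692, 492 and 1112. The second run was sorted as CD44+ DN1 and DN2 cells, so its DN3-like cells bear that name by the gate rule only. The ETP-like gate held 11, 105 and 40 cells, so the first run gave no ETP-like value, and the DN4-like gate held 904, 30 and 32. The γδ-like gate held 504, 437 and 322 cells and the NK-receptor gate 398, 2681 and 2033. No gate took 2328, 2136 and 1206 cells, which were 42.2%, 24.1% and 16.1% of the runs. Cells gated as B cells numbered 5, 21 and 514, the last being 6.84% of the third run.

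In the first run, some markers of the γδ-like and NK-receptor gates went against the names of these gates. Sox13, a transcription factor of γδ cells, was at 26.9 CPM (counts per 1000000 UMIs) in its γδ-like gate, against 122 and 247 CPM in the second and the third runs, and Cd8b1 was at 121 CPM against 2.33 and 10.6 CPM. Id3, another marker of the γδ-like gate, went the other way, at 297 CPM against 237 and 171 CPM. Sox13 also lay above the 9.61 CPM of the first run's DN3-like cells. Cd8b1 was at 70.3 CPM in those DN3-like cells, against 4.43 and 3.29 CPM in the DN3-like cells of the other runs. It was thus raised in more of the first run than its γδ-like gate. The sort of the second run had left out TCRγδ+ cells. Klrd1, an NK receptor, was at 4.66 CPM in the first run's NK-receptor gate, against 618 and 184 CPM in the other runs. All genes of that gate's rule together were at 1732 CPM, against 4485 and 3244 CPM, and at 723 CPM in the first run's DN3-like cells. Sox13, Id3 and the NK-receptor genes are part of the gate rules, which raises them there. The first run's cells in these gates are therefore named here by the gate rule only. Calls on the 10 genes in these gates are given with and without those cells, and results on other genes with them only. Within each gate, cells were called G1, S or G2/M from lists of cell cycle genes that held none of the 10 genes, Uhrf1 having been taken out together with Hells and Cdca7. Levels are CPM of the UMIs summed over all cells of 1 run, gate and phase call. The sums of at least 20 cells, 51 in all, entered 1 edgeR fit with the run as a block, in which 11277 genes and all 10 members passed the filter on low counts. Sums of 1 run share a library, so p-values measure how far differences between gates or phases varied from run to run. The fit counted the sums as separate observations (29 residual degrees of freedom), although those of 1 run are not independent.

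The RefSeq promoter tables were searched for E2F words, short sequences known from genes that are transcribed around DNA replication. A word was TTTCCCGC, TTTCGCGC, TTTGCCGC or TTTGGCGC on either strand, searched from 250 bases before to 50 bases after each start site (GRCm38.p6). All 10 genes matched the table, with 15 start sites between them. Of 32851 promoters, 2.26% held a word, as did 2.6% of 27025 genes by any of their promoters. Among the 10 genes, Dnmt1, Uhrf1, Ezh2 and Suz12 held one, and Dnmt3a, Dnmt3b, Tet1, Tet2, Tet3 and Eed did not. CHR words (TTTGAA or TTCGAA), known from genes of late cell cycle phases, were held by 21.7% of genes and by Dnmt1, Dnmt3b, Eed and Suz12. The stretches with E2F words are printed 5′ to 3′ on the strand of the gene, with the E2F words in capitals and the CHR words left in lower case. The Uhrf1 stretch, at chr17:56304063-56304312 on the plus strand, lies in an intron of the longer transcripts directly before the second start site.
Uhrf1: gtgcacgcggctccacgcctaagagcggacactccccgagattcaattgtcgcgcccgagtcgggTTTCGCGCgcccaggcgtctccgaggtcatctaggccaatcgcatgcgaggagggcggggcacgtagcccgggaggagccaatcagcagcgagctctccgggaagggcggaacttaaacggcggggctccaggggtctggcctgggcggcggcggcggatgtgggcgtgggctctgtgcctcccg
The Suz12 stretch, at chr11:79992856-79993105 on the plus strand, lies before the annotated gene.
Suz12: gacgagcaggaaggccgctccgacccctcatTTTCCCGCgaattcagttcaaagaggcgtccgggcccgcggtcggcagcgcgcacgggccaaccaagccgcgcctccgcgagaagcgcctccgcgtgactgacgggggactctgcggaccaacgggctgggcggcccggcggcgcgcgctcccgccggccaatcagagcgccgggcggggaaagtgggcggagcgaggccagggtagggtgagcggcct
The Dnmt1 stretches lie at chr9:20952824-20952853 and chr9:20952574-20952601 on the minus strand, both in 5′ untranslated exons of some transcripts. The word in the first is a reverse complement.
Dnmt1 word 1: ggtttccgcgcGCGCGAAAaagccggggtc
Dnmt1 word 2: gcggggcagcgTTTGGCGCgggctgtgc
The Ezh2 stretch lies at chr6:47595009-47595038 on the minus strand, in a 5′ untranslated exon.
Ezh2: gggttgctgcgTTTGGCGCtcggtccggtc
These are matches of letters only, and binding at them was not measured.

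The first question put to the data was how the 10 genes follow the cell cycle. Dnmt1, Uhrf1, Ezh2, Eed and Suz12 were higher in S-called than in G1-called cells of the DN2a-like, DN2b-like and DN3-like gates, and Tet1, Tet2 and Tet3 were lower. Hence 8 of 10 members passed the test, 5 higher and 3 lower, where 54.8% of all genes tested did, 22.6% higher and 32.3% lower. The median log2 difference of all genes was -0.13, and that of the 10 members was 0.49. Depth moved with the phase call, since the median cell of a run and gate held 3164 to 9214.5 UMIs when called G1 and 5502.5 to 15988 when called S. Its part in the differences was not tested.

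Dnmt1, which copies methylation onto the new strand, ranged from 31.5 to 77.5 CPM over the 9 G1-called sums, with a median of 46.7 CPM, and from 119 to 297 CPM over the 9 S-called sums, with a median of 162 CPM. The ranges did not overlap, and every S-called sum lay above the G1-called sum of its own run and gate. The difference was 1.89 on the log2 scale (SE 0.10, edgeR quasi-likelihood test, adjusted p = 7.1e-21), or 3.70-fold. The third run lay above the other runs in both phases, at 71.6 to 77.5 CPM in G1-called and 271.5 to 297 CPM in S-called sums.

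Uhrf1, which recruits DNMT1, ranged from 48.4 to 255 CPM in G1-called sums (median 133 CPM) and from 208 to 324 CPM in S-called sums (median 267 CPM). These ranges overlapped, although Uhrf1 was higher in S-called cells in 9 of 9 pairs of sums. The averaged difference was 1.28 (SE 0.15, edgeR adjusted p = 1e-09), but it varied by gate from 0.34 to 2.47 on the log2 scale over the 9 pairs, whereas that of Dnmt1 varied from 1.60 to 1.95.

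Ezh2, the catalytic subunit of PRC2, ranged from 72.7 to 150 CPM in G1-called sums (median 99.9 CPM) and from 197 to 383 CPM in S-called sums (median 246 CPM), without overlap. Its difference was 1.39 (SE 0.11, edgeR adjusted p = 9.8e-15). Eed, which binds the methylated histone tail, differed by 0.81 (SE 0.10, edgeR adjusted p = 2.4e-09), from 29.1 to 51.9 CPM in G1-called sums (median 41.4 CPM) and from 49.5 to 94.2 CPM in S-called sums (median 72.4 CPM). Suz12, which holds the complex together, differed by 0.84 (SE 0.08, edgeR adjusted p = 2.4e-11), from 18.7 to 91.5 CPM (median 33.9 CPM) and from 43.3 to 151 CPM (median 61.1 CPM), respectively. All 3 core subunits of PRC2 were thus higher in 9 of 9 pairs. The overlap of the Eed and Suz12 ranges lay between runs. The third run was lowest for Eed (29.1 to 34.4 CPM in G1-called sums) and highest for Suz12 (85.6 to 91.5 CPM).

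As shares of all UMIs, the TET genes moved the other way. S-called cells held more UMIs, so a lower share need not mean fewer UMIs of the gene per cell. Tet1 ranged from 8.66 to 48.2 CPM in G1-called and from 6.93 to 24.2 CPM in S-called sums, a difference of -0.64 (SE 0.14, edgeR adjusted p = 0.00012). Tet2 differed by -0.82 (SE 0.16, edgeR adjusted p = 3.2e-05) and Tet3 by -0.47 (SE 0.11, edgeR adjusted p = 0.0007). Tet1 and Tet2 were lower in 8 of 9 pairs of sums and Tet3 in 7 of 9. The counts behind them were uneven. Tet2 had 206 UMIs in the G1-called DN3-like cells of the third run, but 12 and 10 in those of the first and second runs. Without the third run, none of the TET genes passed the test, with differences of -0.36 for Tet1, -0.49 for Tet2 and -0.24 for Tet3.

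The de novo methyltransferases did not pass the test. Dnmt3a differed by -0.05 (SE 0.13, edgeR adjusted p = 0.76) and was higher in 4 of 9 pairs. Dnmt3b differed by 0.17 (SE 0.11, edgeR adjusted p = 0.18) and was higher in 5 of 9 pairs. It passed as higher in 2 of 17 alternatives, without the first run (0.32) and with only the sums compared (0.20).

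**Figure D1:**
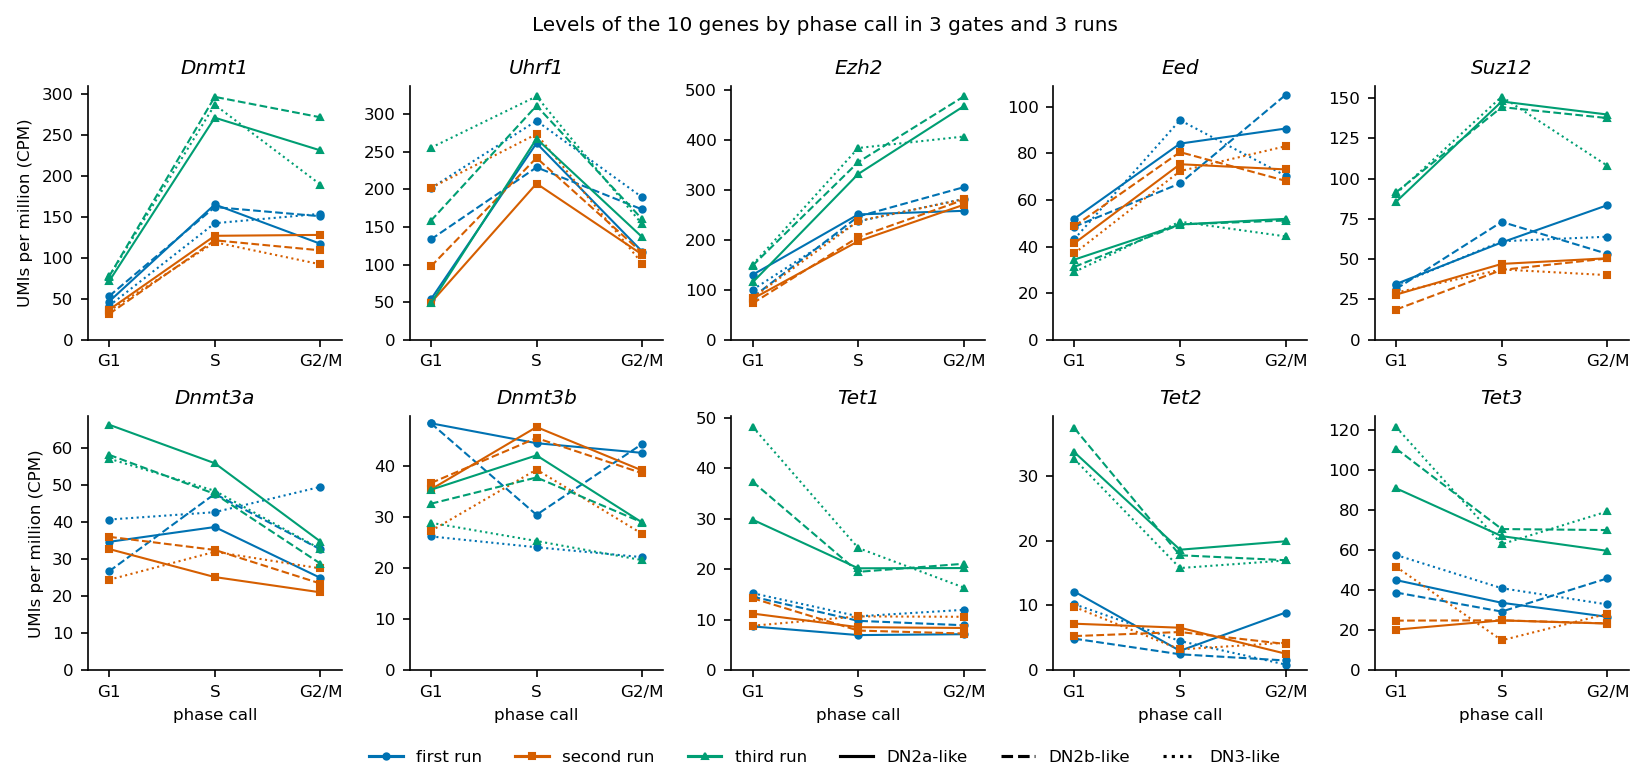
Levels in CPM of the 10 genes in G1-, S- and G2/M-called cells, with 1 line for each run (color and marker) and gate (line style). Dnmt1, Ezh2, Eed and Suz12 are higher in S than in G1 in all 9 lines, Uhrf1 starts from 48.4 to 255 CPM in G1 depending on the gate, and the TET genes are lower in S in most lines.

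From S-called to G2/M-called cells, 3 of 10 members passed, where 22.8% of all genes did. Uhrf1 was lower in 9 of 9 pairs, by -0.96 (SE 0.14, edgeR adjusted p = 1.1e-06), with 101 to 189 CPM in G2/M-called sums. Dnmt3a was lower as well, by -0.40 (SE 0.13, edgeR adjusted p = 0.021), in 8 of 9 pairs. Ezh2 was higher still, by 0.31 (SE 0.10, edgeR adjusted p = 0.02), in 9 of 9 pairs, and reached 258 to 486.5 CPM. Dnmt1 (-0.21, edgeR adjusted p = 0.067), Dnmt3b (-0.28, edgeR adjusted p = 0.06), Eed (-0.03) and Suz12 (-0.06) did not pass. Dnmt1 passed as lower in 5 and Dnmt3b in 6 of 16 alternatives, and DESeq2 was among those of Dnmt3b. The Dnmt3a and Ezh2 calls were lost without the second run (-0.49 and 0.27) and without the third run (-0.27 and 0.30), and the Uhrf1 call was not lost in any of 16 alternatives.

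The next question was how the genes differ between stages at the same phase call. Uhrf1 had the largest fitted difference of the 10 genes in each of the 3 comparisons with G1-called DN3-like cells. In DN2a-like cells it was at 53.7 CPM (95% Poisson interval 36.5 to 76.2, 31 UMIs), 49.2 CPM (41.8 to 57.5, 158 UMIs) and 48.4 CPM (41.8 to 55.8, 190 UMIs) in the 3 runs. In DN2b-like cells it was at 133 CPM (100.5 to 174), 97.5 CPM (81.4 to 116) and 158 CPM (146.5 to 171). In DN3-like cells it was at 201.5 CPM (177 to 229), 202 CPM (175 to 231) and 255 CPM (243 to 268). The order DN2a-like, DN2b-like, DN3-like held in each run with no overlap of neighboring intervals, which cover counting error only. Of the DN2b-like cells, 22.1%, 15.6% and 12.1% were among the highest 8% of doublet scores (Scrublet) in their runs. The shares were 7.97%, 10.4% and 8.13% of DN2a-like and 18.5%, 6.30% and 5.31% of DN3-like cells. The part of doublets in the DN2b-like levels was not tested.

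Between DN3-like and DN2a-like G1-called cells, 2 of 10 members passed, both higher, where 10.3% of all genes did, 4.11% higher and 6.24% lower. Uhrf1 was higher by 2.12 (SE 0.28, edgeR adjusted p = 2.2e-07), or 4.35-fold, in 3 of 3 runs. It passed in all 17 alternatives, among them that without the second run, which was sorted for DN1 and DN2 only. Tet3 was higher by 0.68 (SE 0.19, edgeR adjusted p = 0.017), with 45.01, 20.2 and 91.0 CPM in DN2a-like and 57.6, 51.7 and 122 CPM in DN3-like cells of the 3 runs. The Tet3 call was lost without the second run (0.45) and without the third run (0.94).

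Dnmt1 did not pass in this comparison. It was at 46.7, 36.7 and 71.6 CPM in DN2a-like and at 41.5, 35.1 and 77.3 CPM in DN3-like G1-called cells, a difference of 0.01 (SE 0.18, edgeR adjusted p = 0.99). Pcna and Mki67, genes of replication and division, are on the lists that made the phase calls, so their levels in G1-called cells are partly set by the call. Pcna was at 91.8, 80.6 and 65.2 CPM in DN2a-like and at 60.1, 71.2 and 64.5 CPM in DN3-like cells, and Mki67 was at 3.46, 2.49 and 20.4 CPM and at 6.77, 3.90 and 17.9 CPM, respectively. Cells whose phase score lay within 0.05 of the limit made up 12.4%, 13.0% and 25.1% of the DN3-like cells and 12.1%, 10.97% and 12.9% of the DN2a-like cells. Without these cells the Uhrf1 difference was 2.28 (edgeR adjusted p = 2.9e-08).

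Single cells showed the same order. After each cell had been thinned to 2000 UMIs, 31.0%, 28.6% and 39.4% of G1-called DN3-like cells held a Uhrf1 UMI, against 10.6%, 9.80% and 11.1% of DN2a-like cells. The lowest share was 1.56% (exact 95% interval 1.02 to 2.28%), in the G1-called NK-receptor gate of the third run, where 1668 cells had a median of 6203 UMIs. The G1-called DN3-like cells of that run had a median of 7240 UMIs.

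In S-called cells, 1 of 10 members was lower in DN3-like than in DN2a-like cells and 0 were higher with edgeR, against 5.47% of all genes, 1.56% higher and 3.91% lower. Uhrf1 did not pass. It was at 261, 208 and 267 CPM in DN2a-like and at 291, 273.5 and 324 CPM in DN3-like cells, a difference of 0.31 (SE 0.24, edgeR adjusted p = 0.56). The S-called to G1-called ratio of Uhrf1 was 4.87, 4.22 and 5.52 in DN2a-like, 1.72, 2.48 and 1.97 in DN2b-like, and 1.44, 1.35 and 1.27 in DN3-like cells. The same ratio of Dnmt1 was 3.54, 3.46 and 3.79 in DN2a-like and 3.44, 3.39 and 3.72 in DN3-like cells. The test of the difference between these gates gave -1.81 for Uhrf1 (SE 0.36, unadjusted p = 1.1e-05), which missed the threshold over all genes (edgeR adjusted p = 0.12). With edgeR, 0 of 11277 genes passed this test (0%), 752 were at an unadjusted p under 0.05, and DESeq2 called 1. Uhrf1 passed it in 6 of 17 alternatives. The same test of the NK-receptor gate against the DN3-like gate, added after the data had been seen, was passed by 1 of 10 members, Uhrf1, which was higher by 2.65 (SE 0.39, edgeR adjusted p = 0.0001), where 2.34% of all genes passed, 1.68% higher and 0.665% lower.

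**Figure D2:**
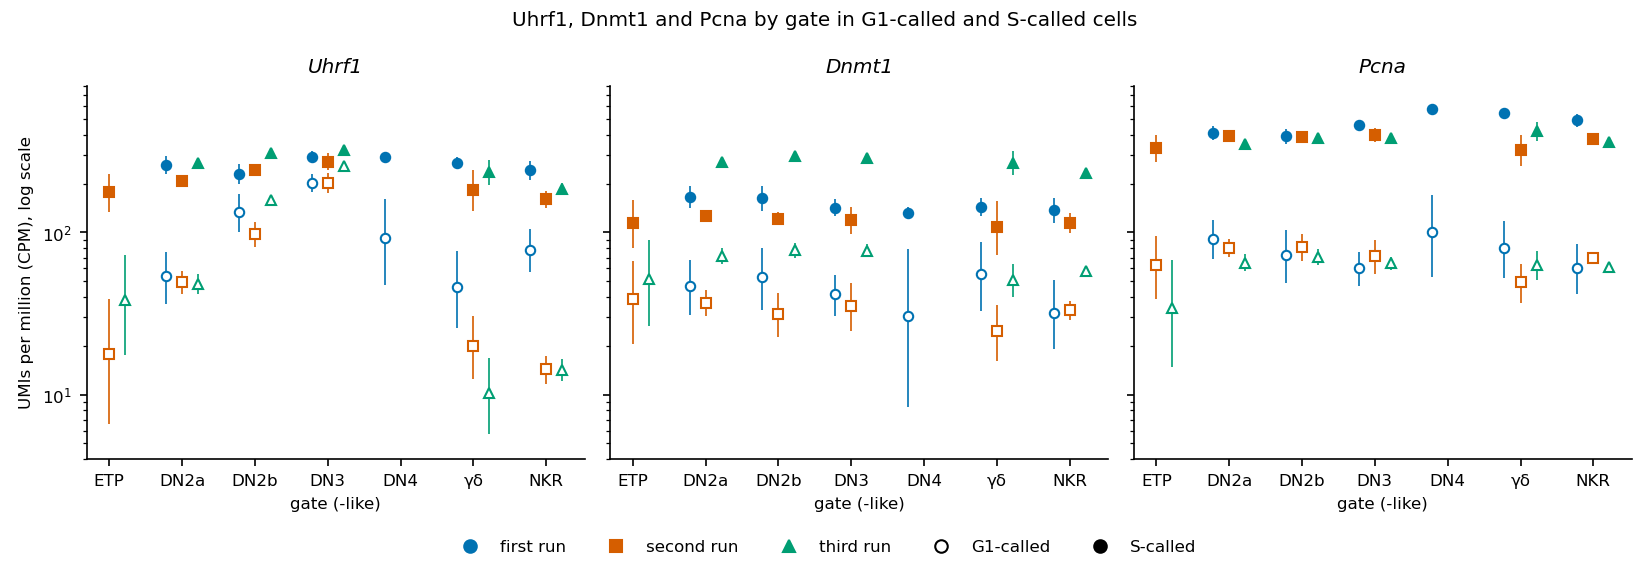
Levels in CPM (log axis) of Uhrf1, Dnmt1 and Pcna, a replication gene from the list that called S phase, by gate in G1-called (open) and S-called (filled) cells of the 3 runs. Bars are exact 95% Poisson intervals. G1-called Uhrf1 climbs from about 50 CPM in DN2a-like to between 201.5 and 255 CPM in DN3-like cells and lies near 10 to 20 CPM in the γδ-like and NK-receptor gates of the second and the third runs, while Dnmt1 and Pcna stay within a narrower range.

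Before DN2a, the 10 genes were measured in few cells. The G1-called ETP-like sums held 59 cells in the second run and 22 in the third. Uhrf1 was at 17.9 CPM (6.57 to 38.9, 6 UMIs) and 38.5 CPM (17.6 to 73.1, 9 UMIs) there, and its interval overlapped that of DN2a-like cells in the third run. None of the 10 genes passed the test of DN2a-like against ETP-like cells, where 3.24% of all genes did, 1.34% higher and 1.9% lower. With edgeR, 1 of the 10 was at an unadjusted p under 0.05, namely Tet1, at -0.85 (SE 0.41, edgeR adjusted p = 0.34), and DESeq2 called 0 of the 10.

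Dnmt3b had its highest levels in the earliest gates. Over cells of all phases it was at 57.2 and 63.2 CPM in ETP-like cells of the second and the third run. It was at 45.1, 42.8 and 38.0 CPM in DN2a-like, 39.3, 41.2 and 34.0 CPM in DN2b-like, and 23.7, 30.4 and 26.9 CPM in DN3-like cells of the 3 runs. The 904 DN4-like cells of the first run had 13.8 CPM (124 UMIs), and those of the other runs had 4.91 CPM (1 UMI) and 4.49 CPM (2 UMIs). The sorts of the second and the third runs did not include DN4, so their DN4-like cells are named by the gate rule only. Il7r was at 241 and 572 CPM in them, against 13.1 CPM in the DN4-like cells of the first run. The order of the Dnmt3b levels was the same over the gates measured in each run, but the counting intervals of DN2a-like and DN2b-like cells overlapped in all 3 runs. In the second run, so did those of ETP-like (42.0 to 76.0 CPM) and DN2a-like cells (39.5 to 46.3 CPM), and those of DN3-like (24.8 to 36.9 CPM) and DN4-like cells (0.124 to 27.4 CPM). The test of DN2a-like against ETP-like G1-called cells gave -0.51 for Dnmt3b (SE 0.32, edgeR adjusted p = 0.52). In S-called cells, DN3-like cells were lower than DN2a-like cells by -0.60 (SE 0.19, edgeR adjusted p = 0.044), in 3 of 3 runs. This call lay close to the threshold and was lost in 7 of 17 alternatives, in which the difference was -0.50 to -0.71. In G1-called cells, the difference of -0.35 (SE 0.19, edgeR adjusted p = 0.29) did not pass, although it was negative in 3 of 3 runs.

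**Figure D3:**
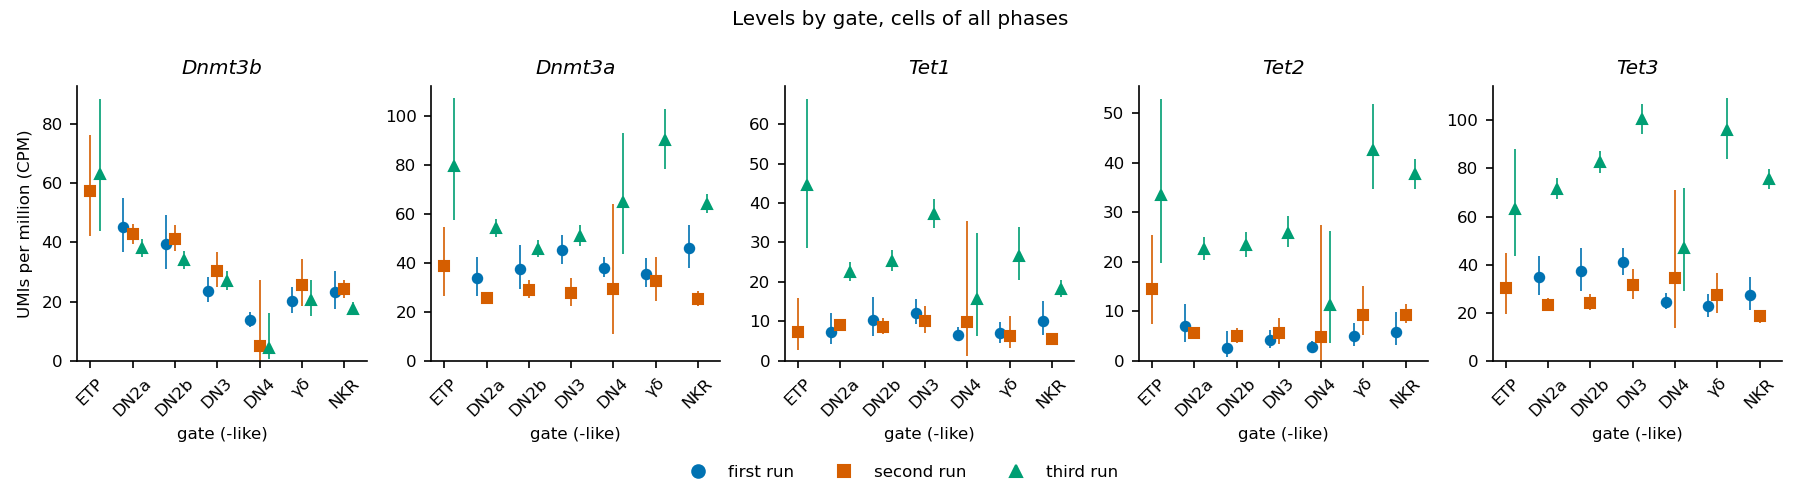
Levels in CPM of Dnmt3b, Dnmt3a, Tet1, Tet2 and Tet3 by gate over cells of all phases, with exact 95% Poisson intervals, for the gates with at least 20 cells in a run. Dnmt3b lies at 57.2 and 63.2 CPM in ETP-like and between 4.49 and 13.8 CPM in DN4-like cells, and the third run lies above the others for the TET genes. The DN4-like values of the second and the third runs rest on 30 and 32 cells, from sorts that did not include DN4.

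Against the DN3-like gate, cells of the γδ-like gate had 2 of 10 members past the test in G1-called cells, where 25.8% of all genes were. Uhrf1 was lower by -3.51 (SE 0.37, edgeR adjusted p = 5.3e-10), at 46.3 CPM (15 UMIs), 20.04 CPM (22 UMIs) and 10.3 CPM (15 UMIs). Dnmt3a was higher by 0.68 (SE 0.24, edgeR adjusted p = 0.029), in 3 of 3 runs, at 61.8, 41.0 and 94.4 CPM against 40.6, 24.4 and 57.1 CPM in DN3-like cells. The Dnmt3a call was lost without the second run (0.69) and without the third (0.65). In S-called cells of the γδ-like gate, Uhrf1 was at 268, 183.5 and 235 CPM, so that its S to G1 ratio was 5.79, 9.16 and 22.9. That ratio was 2.58, 4.41 and 5.33 for Dnmt1.

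The NK-receptor gate had 5 of 10 members past the test against DN3-like cells, where 40.4% of all genes were, 21.3% higher and 19.1% lower, so that this count lies close to that of genes at large. Of the genes called, 52.7% were higher, and 39.1% with scaling by total UMIs alone, when the median of all genes moved from -0.01 to -0.15. The 5 members kept their direction and their call then. Uhrf1 was lower by -3.30 (SE 0.30, edgeR adjusted p = 5.1e-12), at 78.4, 14.3 and 14.2 CPM in the 3 runs. In the second and the third runs, where Klrd1 was higher in the NK-receptor gate, the γδ-like and NK-receptor intervals of Uhrf1 overlapped. Ezh2 was lower by -0.86 (SE 0.20, edgeR adjusted p = 0.00045), at 92.6, 30.3 and 74.1 CPM against 99.9, 83.9 and 150 CPM. Tet1 was lower by -1.05 (SE 0.22, edgeR adjusted p = 0.00015) and Tet3 by -0.72 (SE 0.19, edgeR adjusted p = 0.0018). Tet1 was at 19.6, 4.72 and 19.03 CPM against 15.2, 8.78 and 48.2 CPM, so that the first run went the other way, and without the third run its difference of -0.55 did not pass. Eed was higher by 0.56 (SE 0.17, edgeR adjusted p = 0.0061). The calls on Tet3, Ezh2 and Eed were lost without the second run (-0.46, -0.60 and 0.50), and that on Eed also without the third (0.58).

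Leaving out the first run's sums of the γδ-like and NK-receptor gates, an alternative chosen after the data had been seen, left these 7 calls in place. Uhrf1 was then lower by -3.89 in the γδ-like and by -3.72 in the NK-receptor gate, and Dnmt3b passed in the latter at -0.39. Dnmt1 in G1-called cells did not pass in either gate, at -0.39 (SE 0.21, edgeR adjusted p = 0.18) and -0.12 (SE 0.17, edgeR adjusted p = 0.64) over all sums. Without those sums of the first run it was at -0.54 and -0.04 and did not pass, and without the whole first run it passed in the γδ-like gate at -0.58 (edgeR adjusted p = 0.046).

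**Figure D4:**
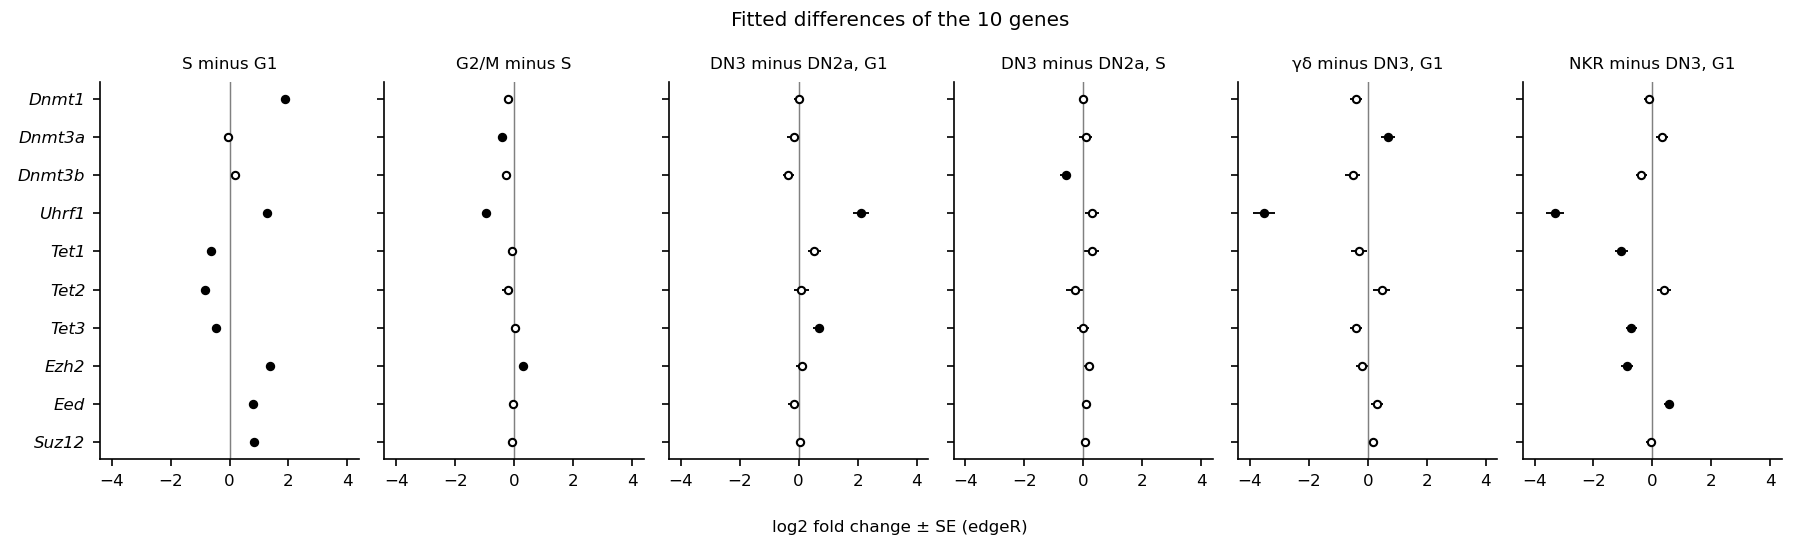
Fitted log2 differences of the 10 genes with their standard errors (bars) in 6 comparisons, where filled points passed an adjusted p of 0.05 over all genes tested. Uhrf1 lies at 2.12 in DN3-like against DN2a-like G1-called cells and at -3.51 and -3.30 in the γδ-like and NK-receptor gates against DN3-like, while Dnmt1 passes for S against G1 only.

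Partners of the 10 genes were followed through fixed lists. Among the DNA methylation partners, 13 of 14 passed the filter, and of these 5 were higher and 4 lower in S-called cells, where 22.6% of all genes were higher and 32.3% lower. Their median log2 difference was 0.13, against -0.13 for all genes. Hells, a chromatin remodeler required for DNA methylation, was higher by 2.92 (SE 0.13), and Cdca7, which recruits it to chromatin, by 1.22 (SE 0.14). Hells and Cdca7 had been taken out of the S phase list, so these values rest on the other genes of that list. Like Uhrf1, Cdca7 was lower in the γδ-like gate (-2.26, SE 0.32) and the NK-receptor gate (-2.16, SE 0.27) than in DN3-like G1-called cells. Its difference between DN3-like and DN2a-like G1-called cells was 0.54 (SE 0.25, edgeR adjusted p = 0.20). In that comparison 0 of 13 partners passed with edgeR, where 10.3% of all genes did.

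Among the 8 PRC2 partners, 3 were higher and 3 lower in S-called cells, where 54.8% of all genes passed in either direction. Phf19, which guides PRC2 to CpG islands, was higher by 3.99 (SE 0.46), and Phf1, a related factor, was lower by -1.46 (SE 0.25). Ezh1, the paralog of Ezh2, was lower by -0.95 (SE 0.14), where Ezh2 was higher. Mtf2, the third of the related PRC2 factors, was higher in DN3-like than in DN2a-like cells, by 0.57 (SE 0.18) in G1-called and by 0.60 (SE 0.18) in S-called cells, and lower in the γδ-like gate than in DN3-like cells by -1.33 (SE 0.20). Phf1 was higher than in DN3-like cells by 1.27 (SE 0.37) in the γδ-like and by 1.5 (SE 0.30) in the NK-receptor gate.

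Of the 20 genes of Polycomb repressive complex 1, which ubiquitinates histone H2A, 5 were higher and 5 lower in S-called cells, a share close to the 54.8% of all genes. Cbx2, a chromodomain subunit, was lower in DN3-like than in DN2a-like G1-called cells by -0.74 (SE 0.25). In the NK-receptor gate 3 were higher and 4 lower than in DN3-like cells, where 40.4% of all genes passed, with Cbx7 higher by 1.85 (SE 0.31). Among the 9 enzymes that oppose Polycomb, the histone H3 lysine 27 demethylases, the lysine 4 methyltransferases and the H2A deubiquitinase subunits, 0 were higher and 6 lower in S-called cells with edgeR, where 22.6% and 32.3% of all genes were. Their median log2 difference was -0.24, against -0.13 for all genes.

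Over the 51 sums, centered within each run, the genes with the pattern most like that of Dnmt1 were Lig1 (r = 0.977), Rbbp7 (r = 0.976) and Gmnn (r = 0.975). For Ezh2 they were Hist1h2ap (r = 0.969), Anapc5 and H2afz, and for Suz12 they were Clspn (r = 0.913), Fen1 and Mcm10. For Uhrf1 they were Cdca7 (r = 0.916), U2af1 and Fdps, and for Dnmt3b they were Ninj1 (r = 0.921), Tfap4 and Atp13a2. The best match of Eed was Pkmyt1 (r = 0.887), that of Tet1 was Tbcel (r = 0.797), that of Tet2 was Atg7 (r = 0.723) and that of Dnmt3a was Rpl10 (r = 0.716). Between members, Dnmt1 correlated with Ezh2 at 0.906, with Suz12 at 0.898, with Eed at 0.843 and with Uhrf1 at 0.723. Gmnn, Clspn and Fen1 are on the list that called S phase, so their likeness is partly set by the call. The sums share libraries, phase calls and depth, so these values are descriptions.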

How the data were processed

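Raw UMI counts per gene and cell were deposited without normalization, as whole numbers. The authors had made them with Cell Ranger on mm10 (the processing notes also name R 3.6.3 and Seurat 2.3). Kits and Cell Ranger versions may differ between runs, so the main fit compared levels within runs. Levels set side by side between runs were not tested. Doublets had not been removed. Cells were kept at 500 to 5000 genes and at most 7% mitochondrial counts and gated on marker UMIs, first removing B, myeloid, erythroid and epithelial cells. Phases were called with scanpy 1.11.5. UMIs were summed per run, gate and phase (at least 20 cells) and tested with edgeR 4.0.16 in R 4.3.3 (TMM, filterByExpr, quasi-likelihood F test, two-sided, Benjamini-Hochberg over 11277 genes, threshold 0.05, run as a block). The total depth was 39947415, 52797915 and 98533329 UMIs. Intervals are exact Poisson intervals for CPM and Clopper-Pearson for shares of cells thinned to 2000 UMIs, at 95%, and cover counting error only. The fit was tested on simulated counts. Alternatives changed the scaling, the test (DESeq2 1.42.0), filters, gates, doublets (Scrublet, the highest 8% left out), phase lists and the runs used. The 10 genes were always named. From each list, Ezh1, Hells, Cdca7 and the 3 genes with the largest difference past the threshold in a comparison were named, and for likeness the 3 genes with the highest correlation among those at 20 CPM or more. The members, lists and tests were chosen with earlier results of these data known. Some results on genes of these lists are not reported here.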

Additional observations from a re-analysis of the deposited data

Results flagged for a closer look

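The S to G1 difference of Uhrf1 was larger in the NK-receptor gate than in the DN3-like gate. Uhrf1 was at 78.4, 14.3 and 14.2 CPM in G1-called and at 242, 161 and 186 CPM in S-called cells of the NK-receptor gate, given in the order of the runs, ratios of 3.09, 11.2 and 13.1, against 1.44, 1.35 and 1.27 in DN3-like cells. The test of the difference between the gates, added after the data had been seen, gave 2.65 on the log2 scale (SE 0.39, edgeR adjusted p = 0.0001), in 3 of 3 runs, where 2.34% of all genes passed. Of the genes called, 71.6% were higher, and 90.5% with scaling by total UMIs alone, where Uhrf1 was at 2.83 and the median of all genes moved from 0.00 to 0.18. Without the first run's γδ-like and NK-receptor sums it was 2.95, and it did not pass without the second run (2.38) or without the third run (2.13). None of the other 9 members passed with edgeR when all sums were used. Eed had the next smallest unadjusted p, at -0.69 (SE 0.23, adjusted p = 0.11), the one other member at an unadjusted p under 0.05, and with DESeq2 it did not pass either. Eed did pass without the first run (-0.81), without that run's γδ-like and NK-receptor sums (-0.91) and without cells near the phase limit (-0.95).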

How the results depend on the processing

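Of the 22 member results past the threshold, 8 passed in every alternative that gave a value: Dnmt1, Uhrf1, Ezh2 and Eed in S against G1, and Uhrf1 in G2/M against S, in DN3-like against DN2a-like G1-called cells and in the γδ-like and NK-receptor gates against DN3-like. Of the 68 that did not pass, 59 passed in none, and 0 called results changed sign. Leaving out 1 run at a time gave 0 to 3 members lower in S against G1, 0 to 1 higher and 1 to 4 lower in G2/M against S, 1 to 2 higher in DN3-like against DN2a-like G1-called cells, and 0 to 0 lower in S-called cells. It gave 0 to 1 higher and 1 to 2 lower in the γδ-like gate, 0 to 1 higher and 2 to 4 lower in the NK-receptor gate, 0 to 1 lower in the interaction by stage, and 0 to 1 higher and 0 to 1 lower in that of the NK-receptor gate. Dnmt3b passed as higher in S against G1 without the first run (0.32).

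The labels give no replicate numbers that pair samples, and the block was the run. Without the replicate block, members higher in S against G1 numbered 4 instead of 5, since Suz12 did not pass (0.83), and those lower 0 instead of 3, those higher and lower in G2/M against S 0 and 1 instead of 1 and 2, and those higher in DN3-like against DN2a-like G1-called cells 1 instead of 2. In S-called cells 0 were lower instead of 1, in the γδ-like gate 0 were higher instead of 1, in the NK-receptor gate 0 were higher and 1 lower instead of 1 and 4, and in the NK-receptor interaction 0 were higher instead of 1.

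With only the sums compared, Dnmt3b was higher in S against G1 (0.20) and Tet1 in DN3-like against DN2a-like G1-called cells (0.58). In that setting, 4 members were lower in G2/M against S, 1 was higher in DN3-like against DN2a-like S-called cells and 1 was lower in the interaction by stage. At least 50 cells per sum gave 4 and 1 lower in G2/M against S and in that interaction, as did leaving out the first run's γδ-like and NK-receptor sums, which gave 1 lower (Eed) in the NK-receptor interaction too. Leaving out cells near the phase limit gave 1 lower in either interaction, and no filter on low genes gave 1 lower in the interaction by stage. Gates on thinned cells gave 1 lower in S against G1 and 0 lower in DN3-like against DN2a-like S-called cells, where full phase lists and leaving out the highest Scrublet scores also gave 0. The latter gave 0 higher in the γδ-like gate, and phases from thinned cells gave 0 higher in G2/M against S. The cause of these changes was not tested. G2/M against S could not be fitted with gates on thinned cells.

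Over all genes, S against G1 called 6185 genes and 2333 without the block, 3557 without the third run and 2572 with gates on thinned cells. G2/M against S called 2575 and 473 to 1622 in the 4 alternatives beyond 1.5 times. DN2a-like against ETP-like called 365 (58 to 571), DN3-like against DN2a-like 1167 (111 to 1793) in G1-called and 617 (42 to 1322) in S-called cells, the γδ-like gate 2912 (803 at the lowest), the NK-receptor gate 4561 (1207 at the lowest), the interaction by stage 0 (up to 151) and that of the NK-receptor gate 264 (0 to 851). With RLE size factors, 26.8% of the genes called in DN2a-like against ETP-like were higher, against 41.4%. Of 1060 levels, 409 left their Poisson interval after thinning, and 1 did at 5% mitochondrial counts. Thinning weighs cells equally and also leaves fewer UMIs, and the part of each was not tested. Of the 10 genes, Tet1 and Tet2 rest on the fewest UMIs.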
